A study of Rattus norvegicus with 48 samples.

Results

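let-7c was covered by 5 of the 1063 miRNA names quantified in rat amygdala and ventral striatum. They were the precursors let-7c-1 and let-7c-2, the mature strand let-7c-5p that both precursors yield, and the opposite arms let-7c-1-3p and let-7c-2-3p. The members were taken by name, and let-7c was selected on measured values, because the study had listed some of these names by their difference between groups: let-7c-5p and let-7c-2 for ethanol in the amygdala of socially enriched rats, and let-7c-1 and let-7c-2-3p for ethanol in the ventral striatum of non-enriched rats. The values in those 2 comparisons are therefore given as a description, with no test.

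Small RNA was sequenced from 48 libraries of Long Evans rats at postnatal day 42, each made from pooled RNA. A pool was taken to hold 3 rats, but the sources do not settle whether the pools of a group held separate rats. The libraries were treated as separate pools. The rats had been exposed in utero to ethanol or to saline (control, C; ethanol, E), injected into the dam, and after weaning were housed with littermates (non-enriched, N) or with unfamiliar rats from an untreated dam (socially enriched, S), always of their own sex. Each region had 24 libraries, 6 for each of the control non-enriched, control enriched, ethanol non-enriched and ethanol enriched groups, with 3 pools of females and 3 of males in each. With A for amygdala or V for ventral striatum before them, N(EvC) and S(EvC) denote ethanol against control within one housing, and C(SvN) and E(SvN) denote enriched against non-enriched housing within one prenatal exposure. Whole amygdala and ventral striatum were dissected, so that a difference in a level could not be assigned to fewer cells of a type or to less RNA per cell, which cannot be told apart here. The labels do not say whether the pools of a group came from separate litters, and p-values measure only the spread between libraries taken as separate pools.

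miRNAs are made from hairpin precursors, one arm of which is usually kept as the mature strand that guides Argonaute proteins to messenger RNAs, while the other arm is mostly degraded. Target choice rests largely on the seed near the 5′ end, and the let-7 family shares one seed. let-7 miRNAs accumulate as cells leave the cell cycle and differentiate, are abundant in the adult brain, and repress, among other targets, the RNA-binding protein gene Lin28.

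The mature sequences, taken from RefSeq (build GRCr8), are shown to make plain how little separates let-7c-5p from its relatives. The seed, bases 2 to 8, is in capitals.
let-7c-5p: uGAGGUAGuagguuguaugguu
let-7c-2-3p: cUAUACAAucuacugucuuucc
All 8 other let-7 family 5p names carried the same seed. In the next lines capitals mark the bases that differ from let-7c-5p, with positions counted from 1 at its 5′ end.
let-7a-5p: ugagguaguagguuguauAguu
let-7b-5p: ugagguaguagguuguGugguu
let-7e-5p: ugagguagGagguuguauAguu
let-7f-5p: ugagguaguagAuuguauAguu
let-7a-5p differed from let-7c-5p at one base (G19A), as did let-7b-5p (A17G), while let-7e-5p (U9G, G19A) and let-7f-5p (G12A, G19A) differed at 2 bases each. let-7i-5p, with 4 differences (G12U, A17G, U18C, G19U), was the most distant of the 8. let-7c-2-3p was identical in sequence to let-7a-1-3p, the opposite arm of a let-7a precursor, so that reads of these names could not be told apart by the mature sequence. RefSeq held a sequence for 4 of the 5 members. let-7c-1-3p was not among them.

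The hairpins of the 2 loci are shown because the split of let-7c-5p reads between them bears on every precursor value given here. Capitals mark the mature arms annotated in them.
let-7c-1 hairpin: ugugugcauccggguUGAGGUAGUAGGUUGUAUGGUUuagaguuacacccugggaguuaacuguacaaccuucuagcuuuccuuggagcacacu
let-7c-2 hairpin: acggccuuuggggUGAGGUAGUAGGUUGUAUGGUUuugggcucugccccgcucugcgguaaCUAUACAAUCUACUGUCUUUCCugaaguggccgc
The let-7c-1 hairpin of 94 nt lies at chr11:29688112-29688205 on the plus strand of GRCr8, inside the long non-coding RNA gene LOC103693508, and follows the hairpin of mir-99a by 640 nt. The let-7c-2 hairpin of 95 nt lies at chr7:118683623-118683717, also on the plus strand, and let-7b-5p begins 327 nt after its end. No other gene was found to span the let-7c-2 hairpin in the RefSeq gene table. let-7c-5p itself is the same 22 nt in both hairpins. On its 3′ side the hairpins shared 1 further base and then differed, and on its 5′ side they shared 0 bases, so that a read starting at the first base of let-7c-5p had to be at least 24 nt long to reach a base that told the loci apart.

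Values are in RPM, reads scaled to a fixed library sum. The mature names of a library summed to 1000000 and so did the precursor names, which puts mature and precursor values on separate scales, so that their levels are not compared with each other. From the value of a single read, the libraries held 363108 to 1370426 mature reads, with a median of 978014, and a count of 3 reads corresponded to 2.19 to 8.26 RPM. The neuronal miR-124-3p and miR-9a-5p together reached 23288 to 45614 RPM across the libraries. Among the other summed marker lists, choroid plexus names ranged from 3423 to 131289 RPM in the amygdala, and from 4353 to 7527 RPM in the ventral striatum. Oligodendrocyte names had a median of 7089 RPM in the amygdala, and 10324 RPM in the ventral striatum. Red blood cell names stayed at or under 56.9 RPM, those of microglia and other white blood cells at or under 352 RPM, and vessel wall muscle names lay between 23215 and 63738 RPM.

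let-7c-5p was one of the more abundant mature miRNAs of both regions. Its opposite arms were far lower, and let-7c-1-3p was near the limit of detection. Over the 48 libraries let-7c-5p averaged 9824 ± 2110 RPM (SD, n = 48), rank 21 of 612 mature names. let-7c-1 averaged 3334 ± 690 RPM, rank 51 of 451 precursor names, and let-7c-2 averaged 5625 ± 1352 RPM, rank 36. let-7c-2-3p averaged 16.9 ± 8.52 RPM and was above 0 in all 48 libraries, and let-7c-1-3p averaged 2.23 ± 1.93 RPM, which is within the range of 3 reads, and was listed at 0 in 4 amygdala and 6 ventral striatum libraries. The median ratio of let-7c-5p to both 3p names together was 630 in the amygdala, against 522 in the ventral striatum. On the log2 scale, with 1 RPM added, the 3p to 5p ratio differed between the regions by −0.28, which did not exceed its spread (permutation test, two-sided, 24 against 24 libraries, adjusted p = 0.132 over 3 ratios).

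Within the let-7 family, let-7c-5p had rank 4 of 9 names by level and the widest spread of the 9. let-7f-5p was highest at 21819 ± 2523 RPM, followed by let-7g-5p at 12150 ± 1349 RPM, let-7i-5p at 11653 ± 930 RPM and let-7c-5p, with let-7a-5p next at 7303 ± 961 RPM (SD, n = 48). The SDs of let-7g-5p, let-7i-5p and let-7c-5p overlapped, as did those of let-7c-5p and let-7a-5p. The names were measured in the same libraries, which overlap of SDs does not take into account, and their order was not tested. miR-98-5p, let-7e-5p, let-7d-5p and let-7b-5p followed, from 3468 down to 1894 RPM. The SD of log2(RPM + 1) within a region was 0.28 for let-7c-5p and 0.25 for let-7b-5p, against 0.11 to 0.17 for the other 7. let-7c-5p made up 14.2% ± 2.70 of the let-7 family 5p total in the amygdala, against 12.4% ± 1.56 in the ventral striatum (SD, n = 24), a difference of 1.80 percentage points (permutation test, two-sided, adjusted p = 0.0199 over 3 ratios), while the family total itself was close in the 2 regions, at 7.37% and 7.33% of mature RPM.

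**Figure D1:**
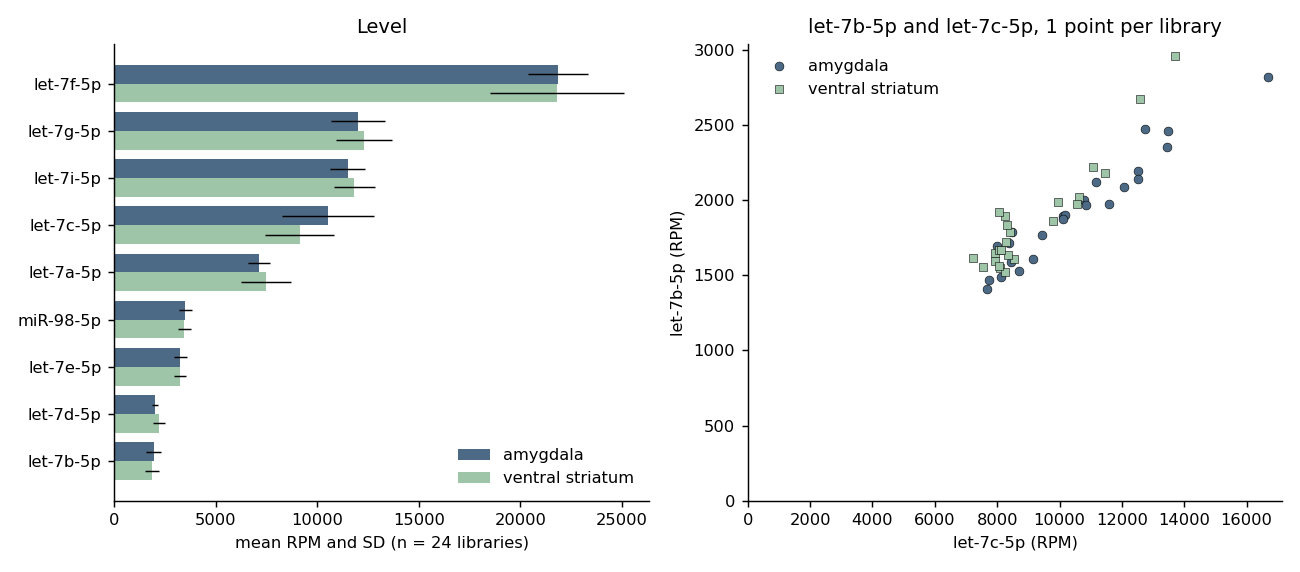
Left, mean RPM of the 9 let-7 family 5p names in the amygdala and the ventral striatum, with bars for the SD over 24 libraries. Right, let-7b-5p against let-7c-5p in RPM, 1 point per library; the points lie along one line in both regions, with Pearson's r of 0.94 after the mean of each region was removed from the log2 values.

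The names whose levels followed let-7c-5p most closely across libraries were led by let-7b-5p. After the mean of each region was removed, Pearson's r of log2(RPM + 1) over the 48 libraries was 0.94 for let-7b-5p, 0.59 for miR-374-5p, 0.56 for miR-99a-5p, 0.55 for miR-195-5p and 0.52 for miR-652-3p, the 5 highest of 305 mature names with a mean of at least 10 RPM. let-7b-5p lies beside let-7c-2, and miR-99a-5p belongs to the mir-99a hairpin beside let-7c-1. let-7a-5p, also one base from let-7c-5p, gave an r of 0.34, and let-7e-5p and let-7i-5p gave −0.01 and −0.15. Among 281 precursors, let-7b led for both let-7c-1 (0.70) and let-7c-2 (0.93). The next 4 were mir-23a, mir-497, mir-195 and mir-204 for let-7c-1, at 0.43 to 0.45, and mir-23a, mir-24-2, mir-3596d and let-7f-1 for let-7c-2, at 0.59 to 0.60. mir-99a, the neighbour of let-7c-1, stood at rank 6 for let-7c-1 with 0.43. These correlations describe libraries that share depth, scaling and pools, and the mature strands of let-7b and let-7c differ at one base.

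let-7c-1 and let-7c-5p were higher in the amygdala than in the ventral striatum, and the other 3 members showed no difference that passed the test. Region may be bound to sequencing set, as described below, and the test does not account for that. Nor does it pair the libraries of the 2 regions that may share animals, which are also described below. Of 942 names tested with limma on log2(RPM + 1) over the 48 libraries, 278 differed between the regions at an adjusted p under 0.05 (29.5%), and 80 of them were higher in the amygdala (8.49%). The members gave 2 of 5 called, both higher in the amygdala, with a median log2 difference of 0.19 against −0.08 over all names tested. let-7c-1 had its lowest, median and highest values at 2567, 3669 and 5103 RPM in the amygdala, and at 2403, 3032 and 3883 RPM in the ventral striatum. The regions overlapped, but the log2 difference of 0.31 (SE 0.06, fold 1.24) was larger than the spread (limma, adjusted p = 0.000116).

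let-7c-5p lay at 7687, 10145 and 16680 RPM in the amygdala, and at 7238, 8297 and 13713 RPM in the ventral striatum, as lowest, median and highest. Its difference of 0.19 (SE 0.07, fold 1.14, limma adjusted p = 0.0400) passed the threshold narrowly. With one library left out at a time it ranged from 0.17 to 0.22, and the adjusted p rose above 0.05 for 19 of the 48 libraries, 10 of them amygdala and 9 ventral striatum, up to 0.0686 without male pool 2 of the amygdala ethanol enriched group. let-7c-2 lay at 4122, 5733 and 10078 RPM in the amygdala, and at 3932, 4896 and 8440 RPM in the ventral striatum. Its difference of 0.14 had a 95% interval of −0.04 to 0.32 (limma, adjusted p = 0.253). let-7c-1-3p (0.40, 95% interval −0.12 to 0.92, adjusted p = 0.246) and let-7c-2-3p (−0.18, 95% interval −0.61 to 0.24, adjusted p = 0.554) did not pass either.

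**Figure D2:**
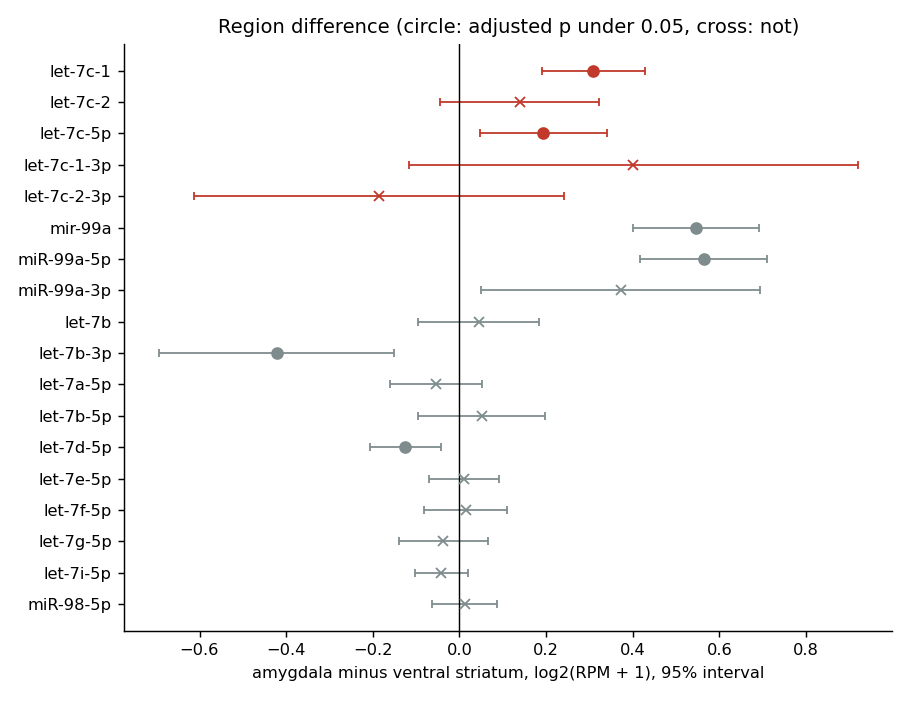
Difference between amygdala and ventral striatum in log2(RPM + 1) for the 5 let-7c names (red), their genomic neighbours and the other let-7 family 5p names (grey), with 95% intervals over 48 libraries. Circles mark names with an adjusted p under 0.05; let-7c-1 at 0.31 and let-7c-5p at 0.19 are the 2 let-7c names among them.

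The region difference of let-7c-1 had the same direction in each treatment group and in each sex. It was 0.30 in control non-enriched, 0.20 in control enriched, 0.26 in ethanol non-enriched and 0.46 in ethanol enriched rats. These 4 values are a description, since each rests in one region on libraries of a comparison that selected the members, and those libraries also enter the region tests over all 48. It was 0.36 in females (adjusted p = 0.00188) and 0.25 in males (adjusted p = 0.0337), and the sex difference of 0.11 did not pass (adjusted p = 1). The summed choroid plexus markers, which moved with region as given above, included the names with the highest single values: miR-204-5p reached 122453 RPM in an amygdala library against at most 6958 RPM in the ventral striatum. Their part in the let-7c difference was not tested. Rescaling each library by median-ratio size factors, which are little affected by a few very abundant names, gave differences of 0.38 for let-7c-1, 0.26 for let-7c-5p and 0.22 for let-7c-2, the last still short of the threshold (limma, adjusted p = 0.0785).

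The genomic neighbours of the 2 loci differed from each other in their regional pattern. Beside let-7c-1, mir-99a averaged 3032 ± 602 RPM in the amygdala, and 2050 ± 213 RPM in the ventral striatum (SD, n = 24), a log2 difference of 0.55 (limma, adjusted p = 5.47e-07). Its mature strand miR-99a-5p differed by 0.56 (adjusted p = 3.95e-07), and miR-99a-3p by 0.37, which did not pass (adjusted p = 0.0734). Beside let-7c-2, let-7b (0.04, adjusted p = 0.691) and let-7b-5p (0.05, adjusted p = 0.653) did not pass, while let-7b-3p was lower in the amygdala (−0.42, adjusted p = 0.0159), at a level of only 22.98 ± 9.07 against 29.6 ± 6.24 RPM. Of the 6 neighbouring names, 2 were higher and 1 was lower in the amygdala. Of the 8 other let-7 family 5p names, 0 were higher and 1 was lower, let-7d-5p (−0.12, adjusted p = 0.0174), and at an unadjusted p under 0.05 the counts were also 0 and 1 in limma.

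The division of let-7c between its loci moved with the order of the libraries' code numbers, and this bears on the precursor values. Each library carries a code number, which the labels and methods do not explain. Within each group of 3 pools of one region, treatment and sex, the libraries can be put in order of that number. In the amygdala the ratio of let-7c-2 to let-7c-1 was 1.38 to 1.44 in the 8 libraries that came first in their group, 1.90 to 2.04 in the 8 that came second and 1.40 to 1.45 in the remaining 8. In the ventral striatum it was 1.36 to 1.47, 1.81 to 1.97 and 2.03 to 2.17, respectively. The ranges of the second place and of the third place in the ventral striatum did not overlap each other or that of the first. The study's libraries were multiplexed in 6 sets of 8, but which libraries shared a set is not given in the sources used here. If a set held only amygdala or only ventral striatum libraries, region and set cannot be told apart. The region tests treat the libraries as independent of set.

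**Figure D3:**
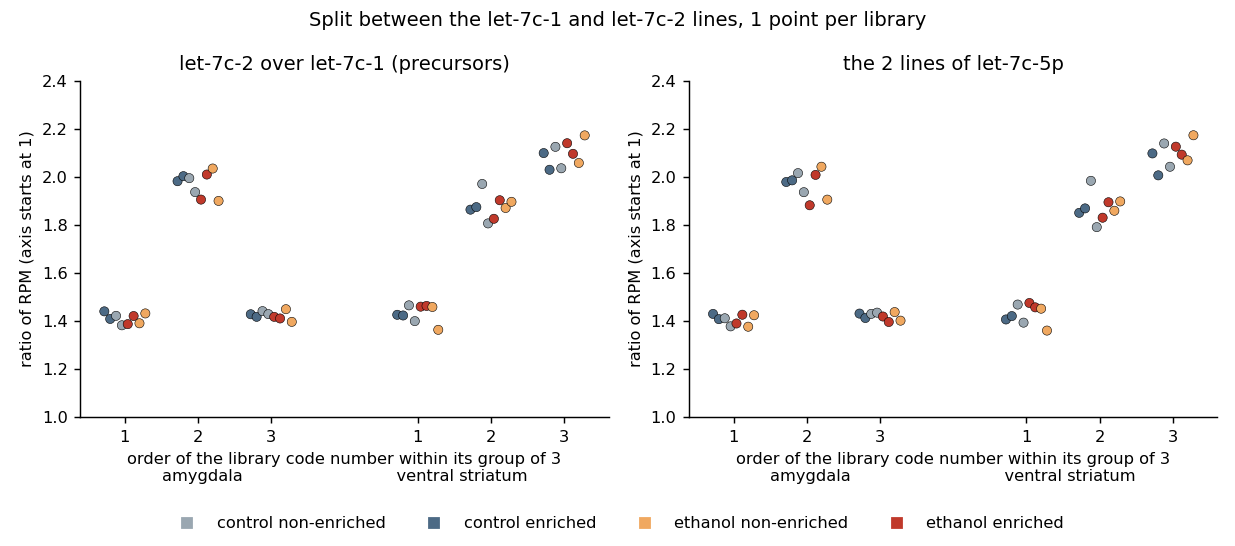
Ratio of let-7c-2 to let-7c-1 in RPM for the precursors (left) and for the 2 entries of let-7c-5p, one per locus (right), 1 point per library, against the place of the library's code number within its group of 3. Color gives the treatment group; in the amygdala the second place stands apart at 1.90 to 2.04, and in the ventral striatum the ratio steps from 1.36 to 1.47 up to 2.03 to 2.17.

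The precursor values followed the way let-7c-5p reads were divided. let-7c-5p is entered once for each locus, and the entries are summed here. let-7c-1 was 0.887 to 0.930 times the let-7c-1 entry of let-7c-5p in RPM, and let-7c-2 was 0.895 to 0.939 times the let-7c-2 entry, in all 48 libraries. The level of these ratios depends on the separate scales of mature and precursor values, so only their narrow range is read here. The ratio of the 2 entries of let-7c-5p had the same steps, from a median of 1.41 through 1.98 to 1.42 in the amygdala, and from 1.44 through 1.86 to 2.10 in the ventral striatum. let-7a-5p and let-7f-5p, which are also entered for 2 loci each, showed steps as well: for let-7f-5p the median ratio of its entries was 2.71, 1.63 and 2.93 in the amygdala, against 2.73, 1.64 and 2.05 in the ventral striatum. All 48 libraries held values above 0 but under 1e-06 RPM, far below the value of 1 read, and the rule by which reads were assigned to several names is not given in the sources used here. let-7c-1 and let-7c-2 are therefore uncertain as separate measurements, and the sum over both entries in let-7c-5p is not affected by the division between them.

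Over all 48 libraries the log2 ratio of let-7c-2 to let-7c-1 was lower in the amygdala, at 0.66 ± 0.23 against 0.83 ± 0.24 (SD, n = 24; difference −0.17, permutation test, two-sided, adjusted p = 0.0253 over 3 ratios). Within places that difference did not keep one direction. It was −0.02 in the first place (exact permutation test, two-sided, 8 against 8, adjusted p = 0.207 over 12 tests), 0.07 in the second (adjusted p = 0.0186, exact permutation) and −0.56 in the third (adjusted p = 0.00186, exact permutation). The region difference of let-7c-1 was positive in each place, at 0.21 (exact permutation test, adjusted p = 0.0589), 0.33 (adjusted p = 0.0479, exact permutation) and 0.39 (adjusted p = 0.0380, exact permutation). That of let-7c-5p was 0.20, 0.36 and 0.03, of which only the second passed (exact permutation test, adjusted p = 0.0620, 0.0380 and 0.834). That of let-7c-2 was 0.19, 0.40 and −0.17, and again only the second passed (exact permutation test, adjusted p = 0.0667, 0.0380 and 0.257). Depth also went with place and region. The second-place amygdala libraries were the 8 shallowest of the 48, at 363108 to 622278 mature reads. Those of the second place in the ventral striatum had 739645 to 1229410. The part of depth in these differences was not tested. In the third place, the let-7c-1 difference stood beside a ratio difference of −0.56 and a let-7c-5p difference of 0.03. There the let-7c-1 difference cannot be told apart from the division of reads between the loci. With the place entered as a block within each region, the regional values were the same by construction and the limma adjusted p was 6.58e-05 for let-7c-1, 0.00924 for let-7c-5p and 0.0524 for let-7c-2. Such a block takes the spread between places out of the error, so it cannot test whether a region difference held across places.

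The ethanol comparisons asked whether let-7c differed between rats exposed in utero to ethanol and to saline, within each housing. Group means of let-7c-5p were higher with ethanol in both regions and both housings, but ethanol and the code number were partly bound together, as described below. In the amygdala, let-7c-5p was 7986, 8959 and 12734 RPM (lowest, median, highest of 6) in control non-enriched libraries and 7747, 8802 and 10797 RPM in control enriched libraries. In the ethanol non-enriched group it was 7687, 11014 and 12522 RPM, and in the ethanol enriched group 8708, 12749 and 16680 RPM. The groups overlapped in both housings, and in the enriched groups 5 of 6 ethanol libraries lay above the highest control.

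In the ventral striatum the control non-enriched libraries were the tightest of the 8 groups. let-7c-5p was 7935, 8245 and 8551 RPM in control non-enriched and 7553, 8102 and 10614 RPM in control enriched libraries. It was 7924, 9043 and 13713 RPM in ethanol non-enriched and 7238, 10256 and 12596 RPM in ethanol enriched libraries. The lowest values of the ethanol groups were level with the controls and the highest lay far above them, so that these ethanol groups were wider than their controls. let-7c-1 had group means of 3353 ± 481, 3219 ± 514, 3827 ± 669 and 4424 ± 634 RPM in amygdala control non-enriched, control enriched, ethanol non-enriched and ethanol enriched libraries, respectively, and 2710 ± 342, 2776 ± 284, 3172 ± 447 and 3192 ± 317 RPM in those of the ventral striatum (SD, n = 6).

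**Figure D4:**
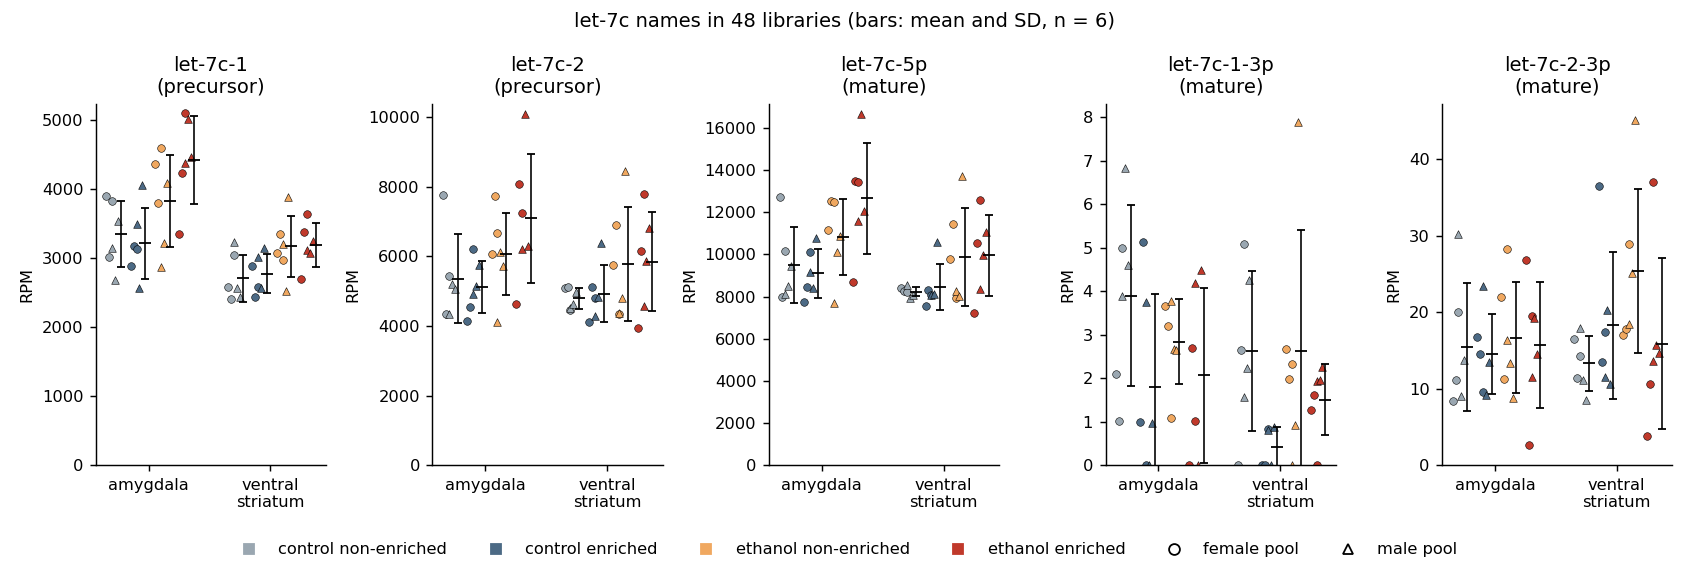
RPM of the 5 let-7c names in the 48 libraries by region and treatment group, circles for pools of females and triangles for pools of males, with the mean and SD of 6 libraries beside each group. For let-7c-1, let-7c-2 and let-7c-5p the ethanol groups reach above the controls in both regions while their lower ends overlap; let-7c-1-3p does not exceed 7.90 RPM.

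In A S(EvC), the comparison that brought in let-7c-5p and let-7c-2, the log2 difference was 0.46 (SE 0.14) for let-7c-5p, 0.44 (SE 0.17) for let-7c-2 and 0.46 (SE 0.13) for let-7c-1, and in each of the 3 names ethanol was higher in 6 of 6 pairs of libraries of the same sex and place. let-7c-1-3p and let-7c-2-3p differed by 0.15 (SE 0.53) and −0.06 (SE 0.44). In V N(EvC), the comparison that brought in let-7c-1 and let-7c-2-3p, the difference was 0.22 (SE 0.10) for let-7c-1, 0.22 (SE 0.18) for let-7c-2 and 0.23 (SE 0.14) for let-7c-5p. let-7c-2-3p was 8.50, 12.9 and 18.001 RPM in control and 16.98, 21.8 and 45.2 RPM in ethanol libraries, a log2 difference of 0.84 (SE 0.39), with ethanol higher in 6 of 6 pairs. In read numbers these were 8 to 23 and 17 to 40 reads. let-7a-1-3p, identical in sequence, had 4 to 15 reads in these control libraries and 8 to 24 in the ethanol libraries. The difference therefore cannot be assigned to let-7c-2-3p alone. As background, 3.85% of names in A S(EvC) and 2.04% in V N(EvC) had an unadjusted p under 0.05, from which nothing is read here about the members. let-7c-5p, let-7c-1 and let-7c-2 share reads, so their counts of pairs are not separate observations. All the pair counts here come from comparisons that selected the members. The share of all names with 6 of 6 pairs was not computed.

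The remaining ethanol comparisons, A N(EvC) and V S(EvC), use 24 libraries that did not enter those above. They are not independent of the selection, since both regions were dissected from the same rats and let-7c levels of paired libraries of the 2 regions were correlated, as given below. Tested together, 0 of 942 names passed an adjusted p under 0.05 in limma, and 44 (4.67%) had an unadjusted p under 0.05. In this fit let-7c-1 was the one member with an unadjusted p under 0.05, but which members were under it depended on the fit. With the place as a block, an alternative added after seeing the data, or with median-ratio size factors, let-7c-1, let-7c-2 and let-7c-5p all were, and with the replicate block let-7c-1 and let-7c-5p were, none of them with an adjusted call in limma. In the fit without blocks, the let-7c-1 difference was 0.19 (SE 0.08, 95% interval 0.03 to 0.36, limma adjusted p = 0.865). let-7c-5p was at 0.21 (SE 0.10, 95% interval −0.00169 to 0.41, limma adjusted p = 0.865) and let-7c-2 at 0.20 (SE 0.13, limma adjusted p = 0.865). let-7c-1-3p (0.26, SE 0.36) and let-7c-2-3p (−0.09, SE 0.30) were smaller than their errors. The members' median of 0.20 stood beside −0.05 over all names tested, and the 3 abundant members share reads.

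By region, A N(EvC) was 0.19 (SE 0.14) for let-7c-5p, 0.18 (SE 0.13) for let-7c-1 and 0.18 (SE 0.17) for let-7c-2, with ethanol higher in 4 of 6 pairs for each, and 0 of 910 names passed in limma while 41 (4.51%) had an unadjusted p under 0.05. V S(EvC) was 0.22 (SE 0.14) for let-7c-5p, 0.20 (SE 0.10) for let-7c-1 and 0.22 (SE 0.18) for let-7c-2, with ethanol higher in 5 of 6 pairs for each, and 0 of 933 names passed while 21 (2.25%) had an unadjusted p under 0.05. None of the 5 members reached an unadjusted p under 0.05 in either comparison in this fit. In V S(EvC), let-7c-2 did with the place as a block, let-7c-1 with median-ratio size factors and let-7c-2-3p in libraries with code numbers up to 56, a choice described below, none with an adjusted call. let-7c-2-3p, which was higher with ethanol in V N(EvC), had values of 10.7, 15.5 and 36.5 RPM in control and 3.79, 14.1 and 37.0 RPM in ethanol libraries of V S(EvC), a difference of −0.33 (SE 0.39, limma adjusted p = 1). In the other let-7 family 5p names the median difference over A N(EvC) and V S(EvC) was −0.03, with 0 of 8 at an unadjusted p under 0.05 in limma, and let-7b-5p was at 0.15 (SE 0.10, adjusted p = 0.865).

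The higher let-7c-5p levels with ethanol stood in libraries with high code numbers. The control libraries had codes from 1 to 56. Of the 24 ethanol libraries, 10 had codes from 9 to 52, within that range, and 14 had codes from 59 to 88, above every control. In the ventral striatum let-7c-5p was 7553, 8175 and 10614 RPM in the 12 controls and 7238, 8052 and 8350 RPM in the 5 ethanol libraries with codes within the control range. In the 7 ethanol libraries with higher codes it was 9804, 11072 and 13713 RPM. All 7 therefore lay above all 5 other ethanol libraries, and 1 of 12 controls, that with code 55, exceeded the lowest of the 7.

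In the amygdala the same split was seen with more overlap. let-7c-5p was 7747, 8821 and 12734 RPM in controls and 7687, 10114 and 11576 RPM in ethanol libraries within the control range. It was 10859, 12522 and 16680 RPM in those above it, so that 6 of these 7 lay above all 5 others. let-7b-5p was arranged alike, with medians of 1740, 1872 and 2191 RPM in the amygdala, and of 1668, 1612 and 2179 RPM in the ventral striatum for controls, ethanol within range and ethanol above range. let-7a-5p was not, with medians of 7302, 6719 and 7222 RPM in the amygdala, and of 7426, 6781 and 7733 RPM in the ventral striatum. Since no control library has a code above 56, ethanol exposure and a high code cannot be told apart in those 14 libraries.

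**Figure D5:**
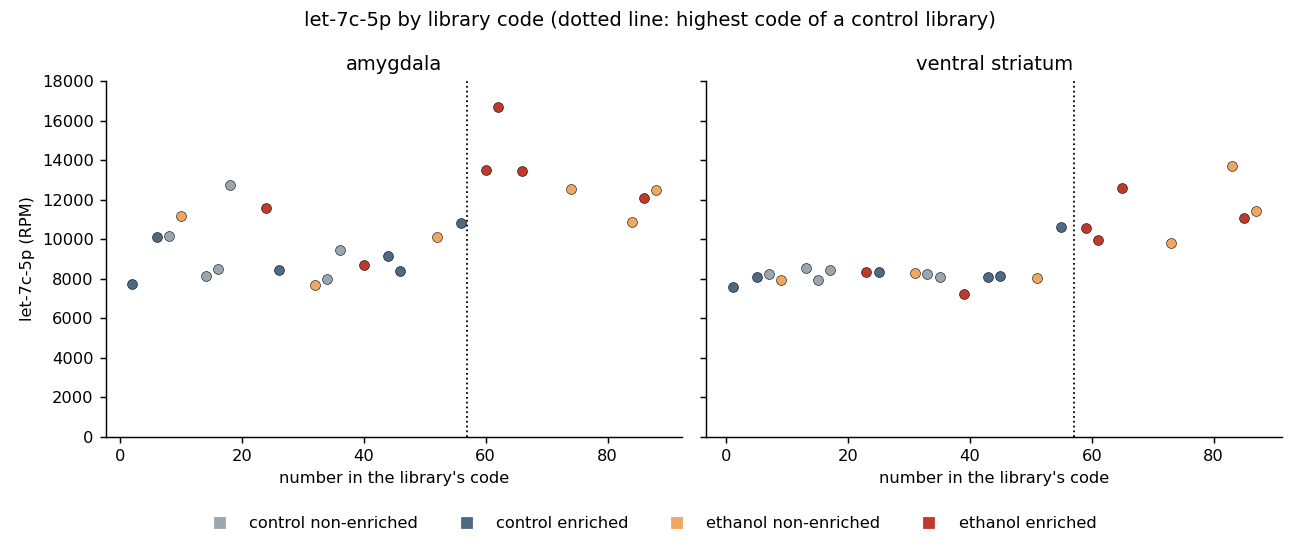
let-7c-5p in RPM against the number in the library's code, 1 point per library, for the amygdala (left) and the ventral striatum (right), colored by treatment group; the dotted line marks the upper end of the control codes. In the ventral striatum all 7 ethanol libraries to the right of the line are at or above 9804 RPM and the 5 to its left are at or below 8350 RPM.

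Restricting the fit to libraries with codes up to 56, a choice made after seeing the data, left 5 ethanol libraries per region against 12 controls. Sex was not a term in this fit. Each contrast within one housing rests on fewer ethanol libraries. In enriched housing these were codes 24 and 40 of the amygdala, and 23 and 39 of the ventral striatum. In non-enriched housing they were codes 10, 32 and 52, and codes 9, 31 and 51, respectively. The ethanol difference over A N(EvC) and V S(EvC) was then −0.043 (SE 0.10) for let-7c-5p, −0.089 (SE 0.12) for let-7c-2 and 0.058 (SE 0.11) for let-7c-1. A S(EvC) was 0.15 (SE 0.19) for let-7c-5p, 0.082 (SE 0.22) for let-7c-2 and 0.26 (SE 0.19) for let-7c-1. V N(EvC) was −0.028 (SE 0.083) for let-7c-5p, −0.089 (SE 0.11) for let-7c-2 and 0.10 (SE 0.11) for let-7c-1, while let-7c-2-3p stayed at 0.83 (SE 0.39). The values of let-7c-5p, let-7c-2 and let-7c-1 were thus all smaller than with every library, and that of let-7c-2-3p in V N(EvC) was nearly the same. Place was not a term in this fit and was uneven. Of the 5 ethanol libraries per region, 4 stood in the first place, 1 in the second and 0 in the third, against 4 controls in each. let-7c-2-3p in V E(SvN) moved from −0.81 to −1.57 (SE 0.50), and in V S(EvC) from −0.33 to −1.08 (SE 0.45), neither with an adjusted call in limma. The summed choroid plexus markers also differed along this split in the amygdala, with medians of 8938 RPM in controls, 16865 RPM in ethanol libraries within range and 27207 RPM in those above it, and in the ventral striatum with medians of 5821, 6052 and 7030 RPM. Their part in the let-7c values was not tested.

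Place and code were also linked, since all 4 ethanol libraries in the first place of each region had codes within the control range and all 4 in the third place had codes above it. By place, ethanol minus control for let-7c-5p was 0.14, 0.41 and 0.42 in the amygdala, against −0.03, 0.23 and 0.47 in the ventral striatum (4 against 4 libraries each, on the log2 scale, both housings together). In the third place of the ventral striatum, let-7c-5p ran from 11072 to 13713 RPM in ethanol libraries and from 8074 to 10614 RPM in controls. In the first place it ran from 7238 to 8350 RPM and from 7553 to 8551 RPM. In the third place let-7b-5p ran from 2179 to 2960 RPM and from 1832 to 2017 RPM, and let-7a-5p from 6746 to 11618 RPM and from 6730 to 8542 RPM. These ranges are a description. The split by place was made after seeing the data, and part of the libraries belong to comparisons that selected the members.

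Libraries of the 2 regions with consecutive codes carried similar let-7c levels. The 48 codes form 24 consecutive pairs, each with 1 amygdala and 1 ventral striatum library of the same sex, treatment and place. Over these 24 pairs, Pearson's r between the regions of log2(RPM + 1) was 0.62 for let-7c-5p (Spearman's rho 0.59), the fourth highest of 307 mature names, whose median was 0.06. It was 0.62 for let-7c-1 and 0.52 for let-7c-2, ranks 7 and 13 of 283 precursors, whose median was 0.09. let-7b-5p gave 0.44, let-7a-5p −0.14 and let-7c-2-3p 0.00. These values describe pairs that share treatment, sex and place, and, since both regions were dissected from the same rats, may share animals. The region tests above did not use this pairing. With the pairs as a random block, the limma adjusted p of the region difference was 6.42e-05 for let-7c-1, 0.0308 for let-7c-5p and 0.228 for let-7c-2. The permutation tests between the regions were not repeated with pairs.

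Social enrichment gave no let-7c difference that passed the test in either region or prenatal group. These comparisons share their libraries with the ethanol comparisons that chose the members. limma called 0 names in A C(SvN), A E(SvN), V C(SvN) and V E(SvN), where 2.64%, 2.64%, 3.86% and 1.82% of names had an unadjusted p under 0.05. In A C(SvN) let-7c-5p was at −0.05 (SE 0.14), and in A E(SvN) at 0.22 (SE 0.14, 95% interval −0.08 to 0.51, limma adjusted p = 1), with enriched higher in 5 of 6 pairs. In V C(SvN) it was at 0.03 (SE 0.14) and in V E(SvN) at 0.02 (SE 0.14). let-7c-1 and let-7c-2 were within 0.22 of 0 in all 4 comparisons, their largest values being 0.22 and 0.21 in A E(SvN).

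let-7c-1-3p had an unadjusted p under 0.05 in V C(SvN). Its difference was −1.21 (SE 0.48, limma adjusted p = 1). It was 0, 2.44 and 5.09 RPM in control non-enriched and 0, 0.411 and 0.892 RPM in control enriched libraries, that is, at most 5 reads and 1 read in a library. In V E(SvN) let-7c-2-3p was at −0.81 (SE 0.39, limma adjusted p = 1), with an unadjusted p under 0.05 only for names with a mean of at least 10 RPM or codes up to 56. The enrichment contrasts did not differ between the regions for let-7c-5p, by −0.08 (SE 0.20) in controls and 0.20 (SE 0.20) in ethanol rats (limma, adjusted p = 1 for both), with intervals reaching from −0.49 to 0.34 and from −0.22 to 0.61.

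No sex difference in let-7c passed the test. Female minus male was 0.02 (SE 0.07, 95% interval −0.13 to 0.17) for let-7c-5p, 0.01 (SE 0.06) for let-7c-1 and 0.03 (SE 0.09) for let-7c-2 over the 48 libraries. let-7c-1-3p was at −0.32 (SE 0.26) and let-7c-2-3p at −0.01 (SE 0.21). limma called 0 of 942 names, and 37 (3.93%) had an unadjusted p under 0.05, none of them let-7c. Of the 8 treatment contrasts, A E(SvN) had the largest female minus male difference in let-7c-5p and let-7c-1, at −0.54 (SE 0.28) for let-7c-5p and −0.48 (SE 0.25) for let-7c-1, neither of which passed (limma, adjusted p = 0.938 for both).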

How the data were processed

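TruSeq small RNA libraries were made by the authors from pooled RNA, gel purified, sequenced on a MiSeq, trimmed, aligned to rat build Rn5 with Bowtie, quantified against miRBase in Partek Flow and scaled to RPM. The deposited values are a normalized signal in RPM, with mature and precursor names each summing to 1000000 per library. The table held 1129 lines for 1063 names, and the 122 lines that share 56 names were summed.

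Groups were taken from the labels. The members and lists were chosen with earlier results of these data known. log2(RPM + 1) was fitted with limma 3.58.1 (R 4.3.3, trend) over 16 cells of region, sex, prenatal exposure and housing, or 8 cells within a region, for names above 0 in at least 6 of 24 libraries of a region, with Benjamini-Hochberg adjustment over all names tested. Permutation tests used scipy 1.17.1, exact or with 100000 resamples. The fits were tested on simulated data. Read totals came from the step between low values, of which 92.3 to 99.6% were whole to within 0.02 of a read, and since names entered for several loci were not all whole reads no count model was used. Named genes were the members, the other let-7 family 5p names, names within 10 kb of a let-7c hairpin, and the 5 names most correlated with let-7c-5p, let-7c-1 or let-7c-2. Summed marker lists of 6 cell types were given beside results. RefSeq sequences and coordinates are of build GRCr8, not Rn5. The 3-read limits cover counting error only. Alternatives changed the pseudocount, filter, scaling, blocks and libraries.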

Additional observations from a re-analysis of the deposited data

Results flagged for a closer look

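Of 40 groups of 6 libraries (5 members, 2 regions and 4 treatment groups), 5 held a library whose gap to its nearest neighbour was a large part of the range of the group. Chance gives such a gap in about 1 in 20 groups. That rate is for independent groups, whereas let-7c-1, let-7c-2 and let-7c-5p share reads, so the count of 5 is not read as an excess. let-7c-2 was 7775 RPM in female pool 1 of the amygdala control non-enriched group, against 4342 to 5449 RPM in the other 5. That library stood in the second place, where more of the let-7c reads were assigned to let-7c-2 than in the other places of the amygdala. let-7c-5p was 10614 RPM in male pool 3 of the ventral striatum control enriched group, which has code 55, the highest control code of that region, against 7553 to 8313 RPM in the others. let-7c-2-3p was 36.5 RPM (50 reads) in female pool 1 of the ventral striatum control enriched group, against 10.7 to 20.3 RPM. let-7c-2-3p was 37.0 RPM (36 reads) in female pool 3 of the ventral striatum ethanol enriched group, against 3.79 to 15.7 RPM. let-7c-1-3p was 7.90 RPM in male pool 3 of the ventral striatum ethanol non-enriched group, which is 7 reads, against 0 to 2.68 RPM.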

How the results depend on the processing

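The region differences of let-7c-1 and let-7c-5p kept their direction and their call under every alternative of scaling, pseudocount, filter and block, but that of let-7c-5p ranged from 0.17 to 0.22 with one library left out and lost the call for 19 of 48 libraries (limma, adjusted p 0.0113 to 0.0686). The place block was set within each region and could not test whether a region difference held across places. By place, that of let-7c-5p was 0.20, 0.36 and 0.03. Depth limits the 3p names, which rest on few reads. Replicate numbers did not pair the samples (36 pairs per region, of which 12 in the amygdala and 16 for ventral striatum had a correlation of deviations over 0.1), and with the replicate block the region difference stayed at 0.31 for let-7c-1 and 0.19 for let-7c-5p (limma, adjusted p = 3.01e-05 and 0.0264), 293 names were called against 278, and no call on a member changed. For pairs of the same place, the median correlation of deviations in the ventral striatum was 0.14, against −0.05 for pairs of different places. In the amygdala these medians were 0.03 and −0.02.

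Values below are log2 differences unless said otherwise, and the cause of each move was not tested. With codes up to 56 and without sex as a term, a choice made after seeing the data, the ethanol difference over A N(EvC) and V S(EvC) was −0.089 for let-7c-2 and −0.043 for let-7c-5p. A S(EvC) was 0.082 for let-7c-2, 0.15 for let-7c-5p and 0.33 for let-7c-2-3p. V N(EvC) was −0.089 for let-7c-2 and −0.028 for let-7c-5p, and V S(EvC) was −0.20 and −0.11. V E(SvN) was −0.087 for let-7c-2, −0.057 for let-7c-5p and 0.47 for let-7c-1-3p, and let-7c-2-3p was 0.062 in A E(SvN). A pseudocount of 10 turned let-7c-2-3p to 0.023 in A S(EvC) and to 0.022 in the sex difference, and median-ratio size factors turned the latter to 0.00483. On unlogged RPM let-7c-2-3p was 1.23 RPM higher in A S(EvC) and let-7c-1-3p 0.00928 RPM higher in V N(EvC). The count of names called in A E(SvN) was 1 with a pseudocount of 0.1 and in the fit over 48 libraries. A mean of at least 10 RPM left no value for let-7c-1-3p.

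With one library left out, the count of names called was 0 to 1 in A N(EvC), A E(SvN), V N(EvC), V S(EvC), V E(SvN), the pooled ethanol difference and the sex difference. The 1 came without male pool 3 of ventral striatum ethanol enriched for the pooled, sex, V S(EvC) and V E(SvN) fits. let-7c-1 ranged from −0.13 to 0.031 in A C(SvN), −0.00215 to 0.099 in V C(SvN), −0.065 to 0.089 in V E(SvN) and −0.0089 to 0.034 for sex. let-7c-2 ranged from −0.15 to 0.061 in A C(SvN), −0.055 to 0.089 in V C(SvN) and −0.082 to 0.17 in V E(SvN). let-7c-5p ranged from −0.13 to 0.034, −0.037 to 0.062 and −0.067 to 0.15 there, and from −0.00249 to 0.051 for sex. let-7c-1-3p ranged from −0.15 to 0.55 in A S(EvC), −0.55 to 0.24 in V N(EvC) and −0.66 to 0.13 in V E(SvN). let-7c-2-3p ranged from −0.041 to 0.37 in A N(EvC), −0.34 to 0.39 in A S(EvC), −0.20 to 0.21 in A C(SvN), −0.49 to 0.24 in A E(SvN), −0.72 to 0.029 in V S(EvC), −0.29 to 0.085 for the pooled ethanol difference and −0.11 to 0.10 for sex.

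Counts at an unadjusted p under 0.05 moved by over 1.5 times with a mean of at least 10 RPM, to 28 (pooled ethanol), 18 (A N(EvC)), 22 (A S(EvC)), 12 (A C(SvN)), 8 (A E(SvN)), 5 (V N(EvC)), 7 (V S(EvC)), 19 (V C(SvN)) and 5 (V E(SvN)), a filter that also tests fewer names. They were 63, 39 and 56 in A N(EvC), V S(EvC) and V C(SvN) with the place as a block, 39, 40 and 32 in V N(EvC), V S(EvC) and V E(SvN) with codes up to 56, and 18 in V C(SvN) on unlogged RPM.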
